A study of Mus musculus with 11 samples.

Results

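The hypoxia and glycolysis genes are a set of 35 mouse genes, taken by gene symbol from the 29809 named genes of a single-cell RNA-seq series on the colon mucosa. All 35 were present, and each is described here by annotated cell type and by library. Cells were counted in 11 libraries, each a pool of colon mucosa from 3 to 8 mice, with 1 library per group. The uninjured group was wild-type mice of about 2 months. In 9 groups wild-type mice of the same age drank 3% dextran sulfate sodium (DSS), an agent that injures the colon epithelium, for 6 days. They were dissected on day 6 or day 7, day 9, day 11 or day 12, days 16, 18 and 19, or day 23, counted from the first day of DSS. The last group was Il10-/- mice of about 10 months, which lack an anti-inflammatory cytokine, interleukin 10, and developed colitis with no DSS. The Il10-/- mice differed from the uninjured mice in age as well as in genotype.

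Cells sense low oxygen through the HIF transcription factors, whose alpha subunits are hydroxylated by the EGLN enzymes when oxygen is plentiful and then destroyed by way of the VHL ligase. When oxygen falls, HIF-1α or HIF-2α pairs with ARNT and binds hypoxia response elements near genes for glucose uptake, glycolysis, lactate export, mitophagy and collagen hydroxylation. The surface of the colon is known for low oxygen even in health. Inflamed mucosa is known to be more hypoxic, since neutrophils consume oxygen, and neutrophils themselves live mainly on glycolysis. HIF activity is set mostly at the protein level, which RNA counts do not measure.

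The set holds 4 regulators (Hif1a and Epas1, the genes of HIF-1α and HIF-2α, with Egln1 and Egln3), 10 hypoxia effectors, Pdk1, 3 transporters, 10 genes of the upper part of glycolysis and 7 of the lower part. Promoter windows of 300 bases, from 250 before to 50 after a transcription start, were found in RefSeq (GRCm38.p6) for 30 of the 35 genes. The core of the hypoxia response element was searched as ACGTG or GCGTG on both strands. A CACGTG holds ACGTG on both strands and counts as 2. At least 1 match was present for 28 of the 30 genes (93.3%), against 46.7% of 27025 genes in the table, and 85.0% of the 40 member starts held a match against 43.8% of 32851 starts. The member windows also had a higher GC content, with a median of 64.8% against 52.7% over all starts. The windows below belong to the genes whose day trends were called in more than 1 cell class (Hif1a, Pgk1 and Pfkfb3, the last with its 2 starts) and to Ankrd37, the gene with the steepest rise. Capitals mark the matches, which are a description of the letters and not a measured binding site.
Hif1a, chr12:73907617-73907916, plus strand: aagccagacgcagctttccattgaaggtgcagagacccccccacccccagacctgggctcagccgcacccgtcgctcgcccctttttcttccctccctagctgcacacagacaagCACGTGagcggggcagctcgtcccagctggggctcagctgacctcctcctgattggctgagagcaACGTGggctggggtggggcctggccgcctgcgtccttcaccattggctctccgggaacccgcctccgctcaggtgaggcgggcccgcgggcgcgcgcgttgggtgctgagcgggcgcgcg
Pgk1, chrX:106186850-106187149, plus strand: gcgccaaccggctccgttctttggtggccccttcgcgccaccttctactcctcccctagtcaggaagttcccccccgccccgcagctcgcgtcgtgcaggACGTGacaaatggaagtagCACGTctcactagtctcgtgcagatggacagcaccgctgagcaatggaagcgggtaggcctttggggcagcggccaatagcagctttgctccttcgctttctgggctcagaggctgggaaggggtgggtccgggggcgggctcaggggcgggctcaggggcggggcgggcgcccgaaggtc
Pfkfb3 first start, chr2:11553880-11554179, minus strand: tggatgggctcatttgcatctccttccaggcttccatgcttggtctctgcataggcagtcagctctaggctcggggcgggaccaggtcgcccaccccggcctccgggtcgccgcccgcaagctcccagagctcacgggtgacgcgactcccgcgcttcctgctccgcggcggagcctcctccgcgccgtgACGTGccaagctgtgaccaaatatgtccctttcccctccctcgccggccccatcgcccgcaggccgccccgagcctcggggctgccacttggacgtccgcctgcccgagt
Pfkfb3 second start, chr2:11502041-11502340, minus strand: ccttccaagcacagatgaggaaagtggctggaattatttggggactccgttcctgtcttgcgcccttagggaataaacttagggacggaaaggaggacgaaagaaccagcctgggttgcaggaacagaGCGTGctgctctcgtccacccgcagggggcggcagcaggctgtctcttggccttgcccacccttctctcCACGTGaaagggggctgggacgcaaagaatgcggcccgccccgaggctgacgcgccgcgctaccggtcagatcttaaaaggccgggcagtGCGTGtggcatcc
Ankrd37, chr8:45999801-46000100, minus strand: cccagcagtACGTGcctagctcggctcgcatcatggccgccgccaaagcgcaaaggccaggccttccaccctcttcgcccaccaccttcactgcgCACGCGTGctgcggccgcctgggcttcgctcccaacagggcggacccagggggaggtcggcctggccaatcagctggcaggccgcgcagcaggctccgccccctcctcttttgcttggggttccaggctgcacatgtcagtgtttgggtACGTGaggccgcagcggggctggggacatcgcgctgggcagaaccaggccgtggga
The window of Hif1a held 3 matches and that of Pgk1 held 2. The first Pfkfb3 start held 1 match, and the second held 4, as did the window of Ankrd37.

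The libraries held 1820 to 8953 cells and 7922350 to 87012379 counts of unique molecular identifiers (UMIs, each 1 captured RNA molecule). Days 7, 11 and 18 carry the batch label C, were processed fresh and were the deepest. The others are batch A in the authors' cell table and were thawed from frozen cells, and fresh or frozen handling, run and number of pooled mice cannot be told apart. Levels are CPM (counts scaled by the total) over all cells of a type or class in a library, where at least 20 cells were present. A class joins the authors' types of 1 kind, such as the columnar epithelial class of colonocyte and crypt types. The 10 columnar markers summed to between 18000 and 22700 CPM over the DSS libraries in the columnar class, against 280 to 1010 CPM in fibroblasts. RNA of neutrophil marker genes was present outside the cells annotated as neutrophils, in places above a class's own markers. Whether it came from neutrophils or from the cells of the class was not tested. In monocytes and macrophages the 8 neutrophil markers summed to more than the 9 markers of the class on days 6 to 12 and day 18 (11300 against 2690 CPM on day 11). In blood endothelium they did so on days 7 and 11 (28300 against 6880 CPM on day 7) and in the Il10-/- library (20600 against 6440 CPM). They summed to 331 to 12200 CPM in columnar cells and 230 to 4780 CPM in fibroblasts of the DSS libraries, against 4.16 and 4.18 CPM in the uninjured library, which held no cells annotated as neutrophils. In sums over cells, fewer cells of a kind within a class and less RNA per cell cannot be told apart.

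Car4/Ly6g colonocytes had the highest median level for 12 of the 35 genes, more than any other of the 18 types compared. These 12 were of several roles, and the 18 types were those with at least 20 cells in at least 5 libraries. Types were named by the authors from the same counts, so these orders are a description. The crypt type called Crypt-2 was highest for 5 genes, neutrophils for 4 and the blood endothelial type for 3. The 17 genes of glycolytic enzymes summed to a median of 8473 CPM in Car4/Ly6g colonocytes (6954 to 10560, 11 libraries). Crypt-2 followed with 7212 CPM (5812 to 8979, 11 libraries), and plasma cells were lowest of the 18 with 1098 CPM (850 to 1326, 9 libraries). The lowest library of Car4/Ly6g colonocytes lay above the highest of macrophages (2965 to 5799 CPM), so these did not overlap, while Car4/Ly6g and Crypt-2 ranges did. The 10 hypoxia effectors were ordered differently, with lymphatic endothelium first of the 18 at a median of 1196 CPM (1035 to 1753, 8 libraries) and blood endothelium next at 1042 CPM (701 to 1171, 10 libraries). These ranges overlapped, and that of Dpep1/Guca2a colonocytes (499 to 1784 CPM) covered both. Of the effectors, Ndrg1 (555 CPM) and Ddit4 (194 CPM) alone were highest in lymphatic endothelium. Outside the 18, red blood cells (3 libraries) had 249 CPM of the glycolytic enzymes, and mast cells (1 library) had 2127 CPM of the hypoxia effectors.

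**Figure D1:**
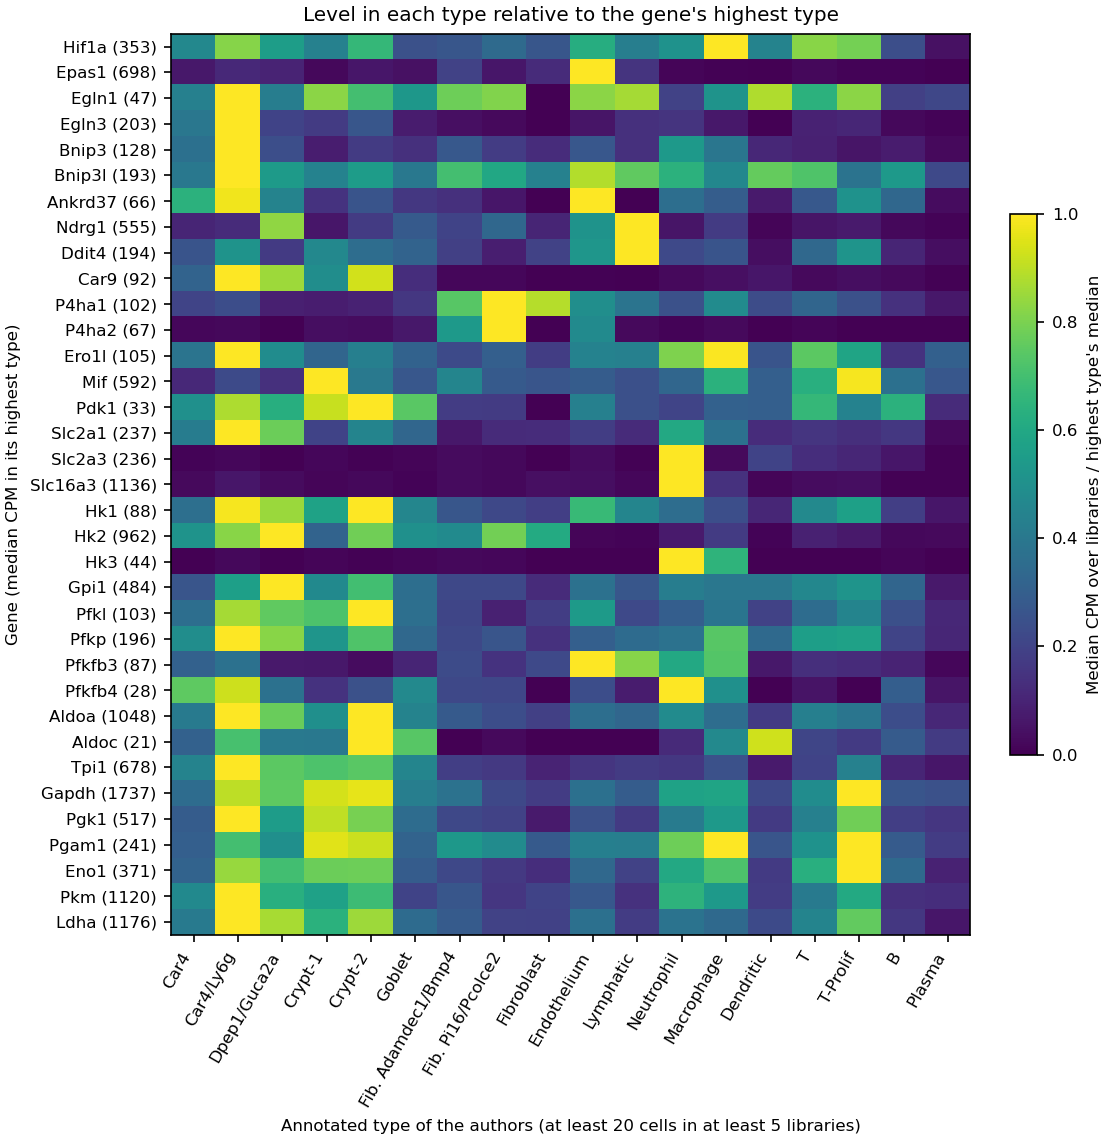
Median level of each of the 35 genes (rows, ordered by role) in each of 18 annotated cell types (columns) over the libraries with at least 20 cells, relative to the type where the gene is highest (colour, 0 to 1). Epas1, Slc2a3 and Slc16a3 are bright in a single column, whereas Gapdh, Ldha and Aldoa are spread over the epithelial columns and more.

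Among the regulators, Epas1 was the most restricted to 1 type. It had a median of 698 CPM in blood endothelium (492 to 948, 10 libraries) and 137 CPM in Adamdec1/Bmp4 fibroblasts (65.2 to 193, 11 libraries), the next type, and endothelium was higher in 10 of 10 libraries with both. Macrophages had 3.90 CPM. Hif1a was broad, with medians of 353 CPM in macrophages, 289.6 in T cells and 288 in Car4/Ly6g colonocytes. Macrophages exceeded T cells in 7 of 11 libraries, and macrophage values ran from 50.03 to 426 CPM, so the order among these neighbours is within their spread. Egln3, a HIF-induced prolyl hydroxylase, had 203 CPM in Car4/Ly6g colonocytes against 80.4 in Car4 colonocytes, higher in 11 of 11 libraries. Egln1, the main oxygen sensor of the family, varied less, with 46.8 CPM in the same colonocytes and 41.1 in dendritic cells.

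By median level, hypoxia effectors were highest in epithelial, endothelial or fibroblast types, some of them within the spread of the next type. Bnip3 and Bnip3l, receptors that mark mitochondria for removal, and Car9, a carbonic anhydrase that exports acid, were highest in Car4/Ly6g colonocytes at 128, 193 and 92.2 CPM. Car9 was near 0 outside the epithelium, with 0.494 CPM in blood endothelium and 2.24 in neutrophils. Ero1l, an oxidase of disulfide formation, had 105 CPM in Car4/Ly6g colonocytes and 104 in macrophages, which do not differ beyond their spread. Ndrg1, a stress-induced gene of growth arrest, and Ddit4, an inhibitor of the growth kinase mTORC1, were highest in lymphatic endothelium at 555 and 194 CPM. Ndrg1 was higher there than in Dpep1/Guca2a colonocytes (463 CPM) in 3 of 5 libraries with both. Ankrd37, a small ankyrin gene known as a HIF target, had nearly the same level in blood endothelium (65.8 CPM) and in Car4/Ly6g colonocytes (64.5 CPM). P4ha1 and P4ha2 encode the catalytic subunits of collagen prolyl hydroxylase and were highest in Pi16/Pcolce2 fibroblasts at 102 and 66.8 CPM. P4ha2 was higher there than in Adamdec1/Bmp4 fibroblasts (35.9 CPM) in 11 of 11 libraries. P4ha1 was higher there than in fibroblasts of no named subtype (90.6 CPM) in 5 of 9. Mif, a cytokine, had 592 CPM in the Crypt-1 type and 583 in proliferating T cells, but Crypt-1 was the higher in only 2 of 7 libraries with both. Pdk1, a kinase that inhibits the use of pyruvate in mitochondria, was low throughout, with a highest median of 32.5 CPM in Crypt-2.

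The transporters separated neutrophils from epithelium. Slc16a3 (MCT4), the lactate exporter of glycolytic cells, had a median of 1136 CPM in neutrophils (775 to 1332, 10 libraries) and 159.8 in macrophages (50.03 to 307, 11 libraries), with no overlap between them. Slc2a3 (GLUT3), a glucose transporter of high affinity, had 236 CPM in neutrophils (129 to 314) against 47.4 in dendritic cells and 30.9 in T cells. Slc2a1 (GLUT1) was instead highest in Car4/Ly6g colonocytes at 237 CPM, with Dpep1/Guca2a colonocytes at 184 and neutrophils at 142.

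Some isozymes of the upper part of glycolysis were split by cell type. Hk3 was found in neutrophils (44.4 CPM) and macrophages (28.9 CPM), and at 1.02 CPM or less in each other type. Hk1 was highest in Crypt-2 (88.2 CPM). Hk2, the inducible hexokinase, had 962 CPM in Dpep1/Guca2a colonocytes, 792 in Car4/Ly6g colonocytes and 758 in Pi16/Pcolce2 fibroblasts, but 11.6 in blood endothelium and 9.13 in lymphatic endothelium. Gpi1, glucose phosphate isomerase, had 484 CPM in Dpep1/Guca2a colonocytes and was higher there than in Crypt-2 (338 CPM) in 8 of 8 libraries. The phosphofructokinase genes were highest in epithelium, Pfkl in Crypt-2 (103 CPM) and Pfkp in Car4/Ly6g colonocytes (196 CPM). Pfkfb3 and Pfkfb4, which make the fructose bisphosphate that activates phosphofructokinase, had their highest medians in blood endothelium (Pfkfb3, 87.0 CPM) and neutrophils (Pfkfb4, 28.0 CPM). Each was within the spread of the next type. Pfkfb3 exceeded its level in lymphatic endothelium (71.3 CPM) in 4 of 7 libraries, and Pfkfb4 that in Car4/Ly6g colonocytes (25.8 CPM) in 6 of 10. Aldolases Aldoa (1048 CPM) and Aldoc (21.3 CPM) were highest in Crypt-2, where Aldoa did not differ beyond its spread from Car4/Ly6g colonocytes (1044 CPM).

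In the lower part of glycolysis, Tpi1, Pgk1, Pkm and Ldha were highest in Car4/Ly6g colonocytes at 678, 517, 1120 and 1176 CPM. Pkm, pyruvate kinase of the M form, was higher there than in Crypt-2 (769 CPM) in 11 of 11 libraries, and Tpi1, triose phosphate isomerase, was higher than in Dpep1/Guca2a colonocytes (507 CPM) in 8 of 8. For Pgk1, which makes the first ATP of glycolysis, 6 of 9 libraries had more in Car4/Ly6g colonocytes than in Crypt-1 (468 CPM). Ldha, which turns pyruvate into lactate, exceeded its level in Dpep1/Guca2a colonocytes (1021 CPM) in 6 of 8 libraries. Gapdh and Eno1 were highest in proliferating T cells at 1737 and 371 CPM, and Pgam1 in macrophages at 241 CPM, each within the spread of the next type. Many of these enzymes have processed pseudogenes or near copies, so their counts may be shared with or lost to those copies.

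Time after DSS was tested as a trend over the 9 DSS libraries, with edgeR's quasi-likelihood test on counts summed per library and class, day and batch label as terms, and Benjamini-Hochberg adjustment over all genes of the class. A slope is the log2 change per 10 days with its standard error, and a call is an adjusted p under 0.05. Over 9 classes, 12 of the 35 genes were called in at least 1 class, with 14 falls and 2 rises, and 23 were called in none. With 1 library per day, p values measure the spread of libraries around a straight line, which may be technical.

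In fibroblasts, 5 of 32 genes fell with day and none rose, in a class where 2.65% of 10290 genes fell and 1.99% rose. The 5 were Hif1a, the mTORC1 inhibitor Ddit4, the glucose transporter Slc2a1 and the glycolytic enzymes Pgk1 and Ldha. From day 6 to day 12 the 5 libraries had 179.9, 172, 191, 185 and 162 CPM of Hif1a. From day 16 to day 23 the 4 libraries had 103, 106, 104 and 93.8 CPM. Every library up to day 12 was thus above every library from day 16 on, and all 9 were above the uninjured (38.8 CPM) and the Il10-/- library (59.0 CPM). The slope of Hif1a was -0.74 ± 0.12 (SE, n = 9 libraries, edgeR adjusted p = 0.00286). Ddit4 was at 64.9, 49.3, 60.2, 34.1 and 44.0 CPM in the libraries up to day 12. From day 16 on it was at 24.0, 25.9, 28.1 and 19.8 CPM, below each earlier library. Its slope was -1.07 ± 0.13 (edgeR adjusted p = 0.000532).

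Slc2a1 in fibroblasts went from 40.6, 32.3 and 33.7 CPM on days 6, 7 and 9 through 30.6, 25.9, 25.8 and 25.05 on days 11, 12, 16 and 18 to 14.7 and 13.2 on days 19 and 23. The last libraries were below the uninjured library (18.8 CPM), unlike those up to day 18. Its slope was -0.82 ± 0.14 (edgeR adjusted p = 0.00508). Pgk1 was at 169 CPM on day 6 and 90.8 on day 23, with 177 on day 12 as its highest value, and its slope was -0.55 ± 0.12 (edgeR adjusted p = 0.0221). Ldha was at 345 to 400.1 CPM up to day 11, at 260.0 on day 12 and at 208 to 270.4 later, with a slope of -0.48 ± 0.12 (edgeR adjusted p = 0.0334). Leaving out any 1 library kept Hif1a, Ddit4 and Slc2a1 called. Pgk1 was no longer called without day 6, 9, 18, 19 or 23 (adjusted p 0.0517 to 0.102), nor Ldha without day 6, 9, 16, 18 or 19 (0.0543 to 0.155). Without day 7, 10 genes of the set were called in place of 5. The share of all genes called in that fit is not given here, so the count does not show a change particular to the set.

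The median slope of the 32 genes in fibroblasts was -0.27, against 0.00 over all genes tested, and 24 of the 32 slopes were negative. Genes that came close were Ero1l (-0.58, adjusted p = 0.0520) and Epas1 (-0.43, adjusted p = 0.0531). Epas1 was called in Pi16/Pcolce2 fibroblasts, with -0.95 ± 0.21 (edgeR adjusted p = 0.0272), where it was at 92.7 CPM on day 6 and 30.3 on day 23. That type also had falls of Ddit4 (-1.27), Slc2a1 (-0.86) and Ldha (-0.64), 4 of 29 genes tested against 1.42% of 8945. In Adamdec1/Bmp4 fibroblasts Hif1a (-1.08), Ddit4 (-0.94), Ndrg1 (-0.68) and Pgk1 (-0.52) fell, 4 of 28 against 3.07% of 7985. In Pi16/Pcolce2 fibroblasts, the largest of the types, Hif1a had a slope of -0.42 and was not called (adjusted p = 0.237). Neutrophil markers in the fibroblast class moved along, with 8 of 8 slopes negative, a median of -1.27 and 2 of 8 called, and the 10 columnar markers had 10 positive slopes with a median of 0.61 and 2 called. Their part in these falls was not tested. Slc16a3, highest in neutrophils, was not called in fibroblasts (-0.92 ± 0.35, edgeR adjusted p = 0.187).

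Among the other genes of the pathway, 33 further HIF targets were tested in fibroblasts, of which 2 fell and 2 rose, beside the 2.65% and 1.99% of all genes. Angptl4, an inhibitor of lipoprotein lipase, fell by 1.64 per 10 days (adjusted p = 0.000238), and Hilpda, a lipid droplet protein, fell by 0.84 (adjusted p = 0.00567). Selenbp1 (0.88) and Rora (0.46), a nuclear receptor, rose. The monocarboxylate transporter Slc16a1 fell by 0.86, as 1 of 11 other glucose genes. None of 9 HIF regulators and partners, 7 pentose phosphate genes or 25 genes of mitochondrial pyruvate use was called, and neither was any of 3 gluconeogenesis genes.

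**Figure D2:**
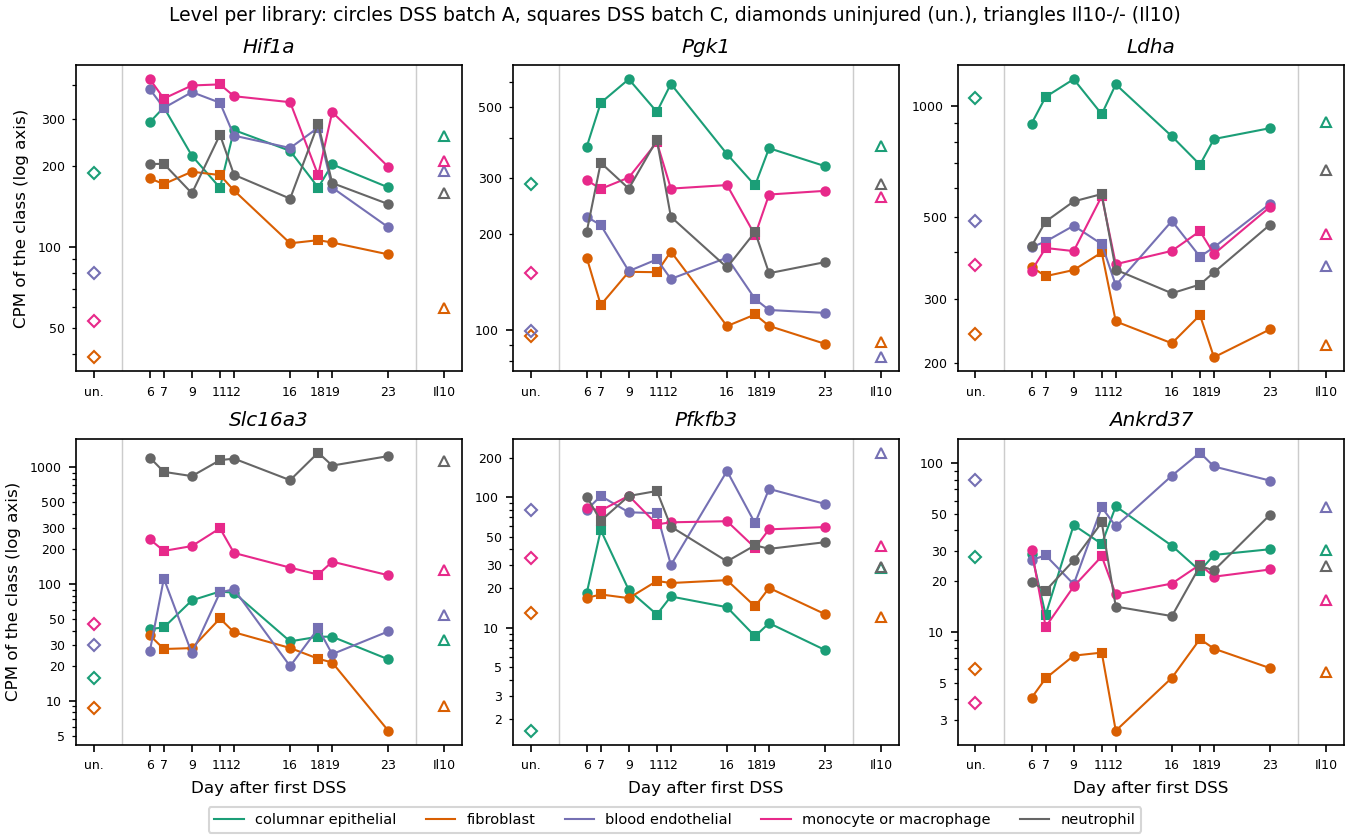
Level in CPM (log axis) of Hif1a, Pgk1, Ldha, Slc16a3, Pfkfb3 and Ankrd37 by day in 5 cell classes, with circles for DSS libraries of batch A, squares for batch C, diamonds for the uninjured library and triangles for the Il10-/- library. Hif1a in fibroblasts sits at 162 to 191 CPM up to day 12 and at 93.8 to 106 CPM from day 16, and Slc16a3 in neutrophils stays between 775 and 1332 CPM.

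In monocytes and macrophages, Hif1a, Slc16a3 and Pfkfb3 fell and Aldoc rose, 4 of 34 tested, in a class where 7.13% of 10058 genes fell and 5.28% rose. The 3 falls and 1 rise are thus near the shares of all genes. Hif1a was at 421, 357, 399, 403, 364 and 346 CPM on days 6, 7, 9, 11, 12 and 16, at 185 on day 18, at 318 on day 19 and at 199 on day 23. The values on days 18 and 23 were the lowest of the 9, though both lay far above the uninjured library (52.9 CPM). Its slope was -0.66 ± 0.14 (SE, n = 9 libraries, edgeR adjusted p = 0.0107). Slc16a3 was at 185 to 300.5 CPM up to day 12 and at 119 to 156 from day 16 on, with no overlap, and its slope was -0.65 ± 0.16 (edgeR adjusted p = 0.0278). Pfkfb3 was at 83.1, 79.1 and 103 CPM on days 6, 7 and 9 and at 41.0, 56.7 and 59.1 on days 18, 19 and 23, a slope of -0.58 ± 0.13 (edgeR adjusted p = 0.0145). Aldoc, a minor aldolase, was at 3.71 to 5.86 CPM up to day 12 and at 10.1 to 11.3 from day 16, against 18.9 in the uninjured and 18.8 in the Il10-/- library. Its slope was 0.80 ± 0.23 (edgeR adjusted p = 0.0340).

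Without the batch term none of these 4 was called. Hif1a was not called without day 23 (adjusted p = 0.0855), Slc16a3 not without day 6, 9, 18 or 23, and Aldoc not without any 1 of days 6, 9, 16, 18, 19 or 23. Pfkfb3 was called without any 1 library. The set as a whole had a median slope of -0.05 in this class, with 16 of 34 slopes positive. The class changed in makeup at the same time: its own markers C1qa (1.09), C1qc (0.99) and Ms4a7 (1.36) rose, and its 8 neutrophil markers had 8 negative slopes with a median of -1.07 and 2 called. The part of either in the falls was not tested. Slc16a3 was at 120.7 CPM on day 18, where the neutrophil markers summed to 2470 CPM, and at 300.5 CPM on day 11, where they summed to 11300.

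The other genes of the pathway in macrophages stand beside the 7.13% of all genes that fell and the 5.28% that rose in this class. Of 27 other HIF targets, 4 fell, with Mxi1 (-0.98), an antagonist of MYC, and the heme oxygenase Hmox1 (-0.86) the steepest, beside Wsb1 (-0.42) and Zfp36l1 (-0.40). Arnt, the partner of HIF-1α, fell by 0.44 (adjusted p = 0.0267) and the hydroxylase Egln2 by 0.57 (adjusted p = 0.0349), 2 of 9 regulators and partners. The citric acid cycle genes Suclg1 (0.37) and Fh1 (0.46) rose, 2 of 25, as did G6pc3 (0.64), 1 of 3 gluconeogenesis genes. Pgd, of the pentose phosphate pathway, fell by 0.36, 1 of 7. The counts of 2 of 25 and 1 of 7 are near the shares of all genes.

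In neutrophils, 4 of 33 genes fell, all in glycolysis, and none rose, against 2.03% of 8394 genes that fell and 0.584% that rose. Hk3 was at 43.0, 67.4, 47.1, 45.8 and 55.2 CPM on days 6, 7, 9, 11 and 12 and at 31.7 to 34.6 CPM from day 16 on, with no overlap. Its slope was -0.91 ± 0.21 (SE, n = 9 libraries, edgeR adjusted p = 0.0362). Pfkfb3 was at 59.5 to 112 CPM up to day 12 and at 32.2 to 45.2 after, with a slope of -1.26 ± 0.28 (edgeR adjusted p = 0.0355). Gapdh was at 910, 1991, 1090.0, 1986 and 854 CPM up to day 12 and at 533, 1305, 728 and 741 after, so that day 18, of batch C, lay among the earlier values. Its slope was -0.74 ± 0.18 (edgeR adjusted p = 0.0379). Pgk1 was at 204 to 395 CPM up to day 12 and at 151 to 203 after, with a slope of -0.87 ± 0.21 (edgeR adjusted p = 0.0379).

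These 4 calls rested on single libraries and on the batch term. None was made without day 9, 18, 19 or 23, and none without the batch term. Of the 33 slopes 28 were negative, with a median of -0.38 against 0.02 over all genes, and all 16 tested genes of the upper and lower parts of glycolysis had a negative slope. Slc16a3 itself had a slope of -0.19 (adjusted p = 0.519) and Slc2a3 of -0.38 (adjusted p = 0.465). The neutrophil markers also moved: their sum was 238000 to 294000 CPM up to day 12 and 114000 to 178000 after, with S100a8, S100a9 and Mmp9 called lower, while the 10 columnar markers had 10 positive slopes with a median of 0.56. Their part in the falls was not tested. Of the other lists, the ADP-dependent glucokinase Adpgk (-2.37) and the transporter Slc2a6 (-0.59) fell, 2 of 8 other glucose genes, as did G6pdx (-1.09), which opens the pentose phosphate pathway, 1 of 7. Pck1 (2.86) rose, 1 of 3 gluconeogenesis genes. None of 29 other HIF targets, 9 regulators and partners or 22 genes of mitochondrial pyruvate use was called by edgeR, with 10, 0 and 4 of them at an unadjusted p under 0.05.

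In the columnar epithelium none of the 35 genes was called, in a class where 0.229% of 10914 genes were, although all 35 slopes were negative. Their median was -0.35 against 0.01 over all genes, and 16 had an unadjusted p under 0.05, against 13.3% of all genes. The steepest were Hk3 (-1.98, adjusted p = 0.105), Pfkfb3 (-1.48, 0.159) and Bnip3 (-1.16, 0.146). Pgk1 had 376, 516, 612, 483 and 591 CPM up to day 12 and 357, 284, 372 and 327 after, with a slope of -0.59 ± 0.21 (edgeR adjusted p = 0.266). Hif1a was highest on days 6 and 7 (291 and 331 CPM) and lowest on days 11, 18 and 23 (166, 166 and 167 CPM). DESeq2 called 5 of 35 (3.23% of all genes), and edgeR 2 of 34 when fitted on the 6 libraries of batch A (1.04% of all genes). Leaving out 1 library gave 0 to 3 calls, with 3 without day 7 (1.61% of all genes). Neutrophil markers in this class had 8 of 8 negative slopes with a median of -1.93 and 1 called, and fibroblast markers 7 of 7 with a median of -1.23. Their part in the slopes was not tested.

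Within the columnar types, negative slopes were found for 24 of 28 genes in Car4 colonocytes, 26 of 32 in Car4/Ly6g colonocytes, 27 of 30 in Crypt-1 and 29 of 32 in Crypt-2. None was called in Car4 (0.857% of all genes), Car4/Ly6g (1.11%) or Crypt-2 cells (0.194%). Crypt-1 had calls, Hif1a and Pgk1, 2 of 30 against 0.712% of 8281 genes that fell. There Hif1a went from 168 CPM on day 7 and 233 on day 9 to 83.1 on day 23 (-0.81 ± 0.15, edgeR adjusted p = 0.0103). Pgk1 went from 482 and 649.6 CPM to 331 (-0.59 ± 0.13, edgeR adjusted p = 0.0217). Of 30 other HIF targets in the columnar class 26 had negative slopes and 1, Hmox1, fell, by 1.65 per 10 days (adjusted p = 0.0241).

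The blood endothelial class had a fall and a rise, Hif1a and Ankrd37, among 24 genes tested, where 0.424% of 3537 genes fell and 0.876% rose. Ankrd37 was at 26.7, 28.4 and 19.2 CPM on days 6, 7 and 9, at 54.8 and 42.3 on days 11 and 12, and at 84.5, 116, 95.8 and 78.9 from day 16 on. All 4 late libraries were above all 5 early ones, and the uninjured library had 79.7 CPM, inside the late range. The slope was 1.52 ± 0.25 (SE, n = 9 libraries, edgeR adjusted p = 0.00409). Hif1a moved the other way, from 387 CPM on day 6 and 377 on day 9 to 118 on day 23 (-0.80 ± 0.18, edgeR adjusted p = 0.0247), with 79.7 CPM in the uninjured library. The sums behind these values are small, with 27 to 491 cells per DSS library. Ankrd37 had at least 20 counts in 3 of the 9 DSS libraries, and fewer in the others and in the uninjured library. Ankrd37 was not called without day 18 (1.34, adjusted p = 0.105), and Hif1a not without day 6, 9, 19 or 23 (adjusted p 0.0529 to 0.162). The median slope of the 24 genes was 0.06. Neutrophil markers in the class summed to 266 to 28300 CPM over the DSS libraries and their 3 tested slopes had a median of -3.38, none called. Fibroblast markers summed to 74.6 to 645 CPM there and columnar markers to 256 to 1610 CPM. The part of these markers was not tested. None of 12 other HIF targets was called.

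The remaining classes gave 1 call. In T cells 0 of 30 genes were called (0.217% of 7848 over all genes), in B cells 0 of 26 (0.876% of 6852) and in myofibroblasts 0 of 19 (0% of 2735), with 2, 4 and 2 of the genes at an unadjusted edgeR p under 0.05, against 9.62%, 9.43% and 6.8% of all genes. In plasma cells Egln1 fell, 1 of 30 against 0.644% of 9474. It had 37.6 CPM on day 6 and 1.62 on day 23, over 7 libraries with enough cells, and a slope of -1.80 ± 0.46 (edgeR adjusted p = 0.0118). These levels rest on 7 counts on day 6 and 5 on day 23, and on 94 on day 18, the class's only library of batch C. Markers of other cells moved in this class too: 5 of 9 macrophage markers rose (median slope 2.15), 3 of 8 neutrophil markers (median -1.46) and 2 of 8 fibroblast markers (median -0.48) fell, and their part was not tested.

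**Figure D3:**
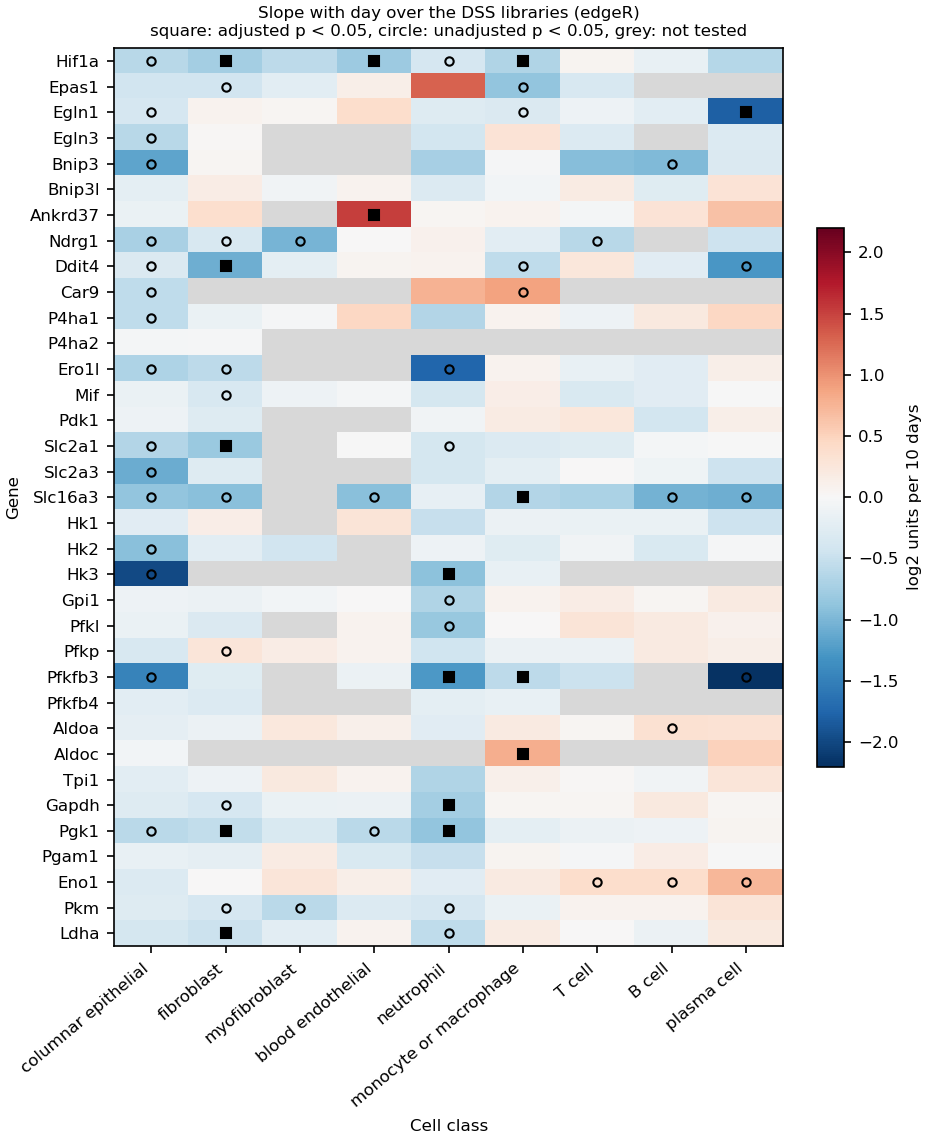
Slope with day (colour, log2 change per 10 days) of each of the 35 genes (rows) in 9 cell classes (columns), with squares for an adjusted p under 0.05, circles for an unadjusted p under 0.05, and grey where a gene was not tested. The columnar column is negative throughout without a square, and the fibroblast column has 5 squares.

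A call in 1 class and none in another does not show a difference, so the slopes of 5 classes were compared pairwise within libraries. Columnar cells against endothelium and macrophages against neutrophils each had 4 calls, and 4 other pairs had 1 call each. Fibroblasts had a lower slope of Ldha than macrophages by 0.61 ± 0.12 (edgeR adjusted p = 0.0102), 1 of 35 against 2.88% of 12324 genes. Ddit4 was lower in fibroblasts than in blood endothelium by 1.09 ± 0.24 (edgeR adjusted p = 0.00499), 1 of 33 against 1.09%, and than in neutrophils by 1.08 ± 0.25 (edgeR adjusted p = 0.0306), 1 of 34 against 1.53%. Epas1 had a higher slope in blood endothelium than in macrophages, by 1.05 ± 0.31 (edgeR adjusted p = 0.0452), 1 of 35 against 2.28%. The counts for Ldha and Epas1 are thus near the share of all genes. Macrophages had higher slopes than neutrophils for Gapdh, Ldha and Gpi1, by 0.79 ± 0.18, 0.74 ± 0.17 and 0.78 ± 0.20, and a lower one for Epas1, 4 of 34 against 1.14% of 11050 genes. In macrophages Epas1 had at least 20 counts in only 2 of the 9 DSS libraries, so its differences rest on few counts there. Bnip3, Ankrd37, Hk2 and Pfkfb3 had lower slopes in columnar cells than in blood endothelium, by 1.75, 1.6, 2.32 and 1.68, 4 of 35 against 0.717%. The endothelial side rests on few counts. At least 20 were present in 2 of the 9 DSS libraries for Hk2, 3 for Bnip3 and for Ankrd37, and 5 for Pfkfb3. On the 6 libraries of batch A none of these 4 was called (adjusted p 0.0553 to 0.761, and 0.532% of all genes), nor Ddit4 between fibroblasts and endothelium (adjusted p = 0.0800, 0.246%) nor Epas1 between endothelium and macrophages (adjusted p = 0.461, 0.708%). None of the set was called between columnar cells and fibroblasts (0.0839% of all genes), macrophages (0.148%) or neutrophils (0.0667%), nor between endothelium and neutrophils (0.166%). For Hif1a, which was called in fibroblasts, endothelium and macrophages, none of the 10 pairs was called, with differences from -0.37 ± 0.25 (endothelium less neutrophils) to 0.18 ± 0.28 (columnar less fibroblast) in the slope and adjusted p values of at least 0.474.

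The batch label moved some of the same genes. Batch C libraries had more Egln1 in each of fibroblasts (0.60 on the log2 scale), macrophages (0.85), neutrophils (1.19), T cells (1.14), B cells (1.59), plasma cells (1.87, on a single library of batch C) and myofibroblasts (1.24). Ndrg1 was lower in columnar cells (-2.40), macrophages (-1.09), T cells (-1.05) and fibroblasts (-0.58), and Hk2 in fibroblasts (-1.87), macrophages (-1.48) and T cells (-0.98). Of the genes called with day, Ddit4 in fibroblasts (-0.53), and Hif1a (-0.51) and Pfkfb3 (-0.60) in macrophages, were also lower in batch C. Calls for the batch label were 7 of 32 genes in fibroblasts against 15.3% of all genes tested, 2 of 35 in columnar cells against 10.4%, 8 of 34 in macrophages against 25.4% and 1 of 33 in neutrophils against 11.2%. They were 1 of 24 in endothelium against 11.3%, 3 of 30 in T cells against 11.7%, 2 of 26 in B cells against 18.1%, 2 of 30 in plasma cells against 6.54% (1 library of batch C) and 2 of 19 in myofibroblasts against 11.7%. Within the columnar class more genes of the set moved in single types. In Crypt-1 cells 12 of 30 were lower in batch C, against 7.27% of all genes, among them Hif1a (-0.66) and Pgk1 (-0.53), which were also called with day there, and in Car4 colonocytes 9 of 28 were lower, against 12.7%.

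Against the uninjured library, macrophages had more genes past 2-fold than columnar cells, fibroblasts or blood endothelium. T cells and B cells, with 38 and 53 uninjured cells, were left out of this order, though endothelium, with 43, was kept. In T cells Mif was at least 2-fold higher in 9 of 9 DSS libraries with enough counts, Hk2 and Gpi1 in 8 of 8, and Ero1l and Pgam1 in 6 of 8. Ankrd37 was at least 2-fold lower in 4 of 5 and Bnip3 in 4 of 6. On day 11, 13 of 32 genes were higher in T cells, against 8.76% of all genes, and 4 lower, against 39.1%. On day 18, 5 of 30 were higher, against 8.48%, and 6 lower, against 32.0%. The median log2 ratio of the set over the DSS libraries was -0.28 to 0.64 in T cells, against -0.60 to 0.21 for all genes. In B cells it was -1.1 to -0.06, against -0.24 to 0.18. The uninjured library is that of batch A. The cell table holds another day 0 library, of batch B, which the labels' protocols do not name and which was not used, so each of these ratios rests on that choice. With 1 library on each side there is no test, and ratios of CPM carry exact 95% intervals for counting error only. In monocytes and macrophages 12 of 31 genes with enough counts were at least 2-fold higher in 5 or more of the 9 DSS libraries, against 13.4% of 7905 genes, and none was 2-fold lower in as many, against 8.68%. They were Hif1a, Bnip3, Ankrd37, Ndrg1, Ddit4, Ero1l, Mif, Slc2a1, Slc16a3, Hk3, Pfkl and Pfkp. The Hif1a ratio had a median of 6.75 (3.50 to 7.97) over the DSS libraries. On day 6 it was 7.97, from 1197 counts against 14, with an interval of 4.73 to 14.6. Slc2a1 had a ratio of 5.38 on day 6 (2.45 to 14.8), and Slc16a3 one of 5.34 (3.04 to 10.4). For Ddit4 the ratio of 10.1 rested on 2 uninjured counts (2.75 to 83.7). The median log2 ratio of the set was 0.47 to 1.14 over the 9 DSS libraries, against -0.12 to 0.27 for all genes. The uninjured class held 67 cells and 264855 counts. Its neutrophil markers summed to 249 CPM, against 898 to 11300 in DSS libraries, and its own markers to 8940 CPM against 1860 to 5960, and the part of these was not tested.

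For 3 enzymes of the lower part of glycolysis the uninjured value lay within the DSS range in these cells. Gapdh had 925 CPM there and 776 to 1576 after DSS, Eno1 309.6 against 220.5 to 392, and Ldha 370.0 against 357 to 569. In all, 21 of 34 genes were lower in the uninjured library than in each DSS library, against 32.9% of the genes tested, and 2, Car9 and Aldoc, were higher than in each, against 24.0%.

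In fibroblasts, Hif1a, Epas1, Ddit4 and Slc16a3 were at least 2-fold higher than uninjured in 5 or more DSS libraries, 4 of 28 against 6.52% of 9223 genes, and none was 2-fold lower, against 3.69%. Hif1a, Epas1 and Ddit4 were so in 9 of 9. Epas1 had 16.4 CPM without injury and 63.4 to 116 CPM after DSS, a median ratio of 5.61 (3.86 to 7.04). On day 6 its ratio was 6.13 (4.47 to 8.51), that of Hif1a 4.63 (3.74 to 5.76) and that of Ddit4 6.58 (4.39 to 10.1). Gpi1, Aldoa and Eno1 went the other way, higher in the uninjured library than in each DSS library, 3 of 32 against 13.8% of genes. Aldoa was at 422 CPM against 185 to 337, with a ratio of 0.638 on day 6 (0.569 to 0.713). For Slc16a3, the uninjured library had 8.67 CPM and the neutrophil markers there 4.18 CPM. In DSS libraries these markers summed to 230 to 4780 CPM in fibroblasts, and their part was not tested.

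In columnar cells 5 of 32 genes were at least 2-fold higher in 5 or more DSS libraries, against 8.82% of 9443 genes, and none lower, against 2.9%. Ero1l and Pfkfb3 were higher in 9 of 9, Slc16a3 in 8, Mif in 6 and Egln3 in 5. The neutrophil markers in this class summed to 4.16 CPM in the uninjured library and to 331 to 12200 CPM in DSS libraries. Their part in these ratios was not tested. Ero1l went from 22.2 CPM to between 48.3 and 117, with a median ratio of 2.94. Pfkfb3 had 1.62 CPM, from 7 counts, and 6.73 to 56.0 in DSS libraries, a median ratio of 8.86, and on day 9 a ratio of 12.0 (5.56 to 30.8). Mif went from 102 CPM to 137 to 429, and Egln3 from 37.7 to 53.3 to 131. For Ldha (1051 CPM against 692 to 1182) and Aldoa (913 against 703 to 1073) the uninjured value lay within the DSS range. Cells of the uninjured columnar class had a median of 34.7% mitochondrial counts, the highest share of this library's classes. With mitochondrial genes left out, 4 genes in place of 5 were at least 2-fold higher, and the median log2 ratio of the set went from 0.23 to -0.21 on day 11 and from 0.09 to -0.20 on day 23. In blood endothelium Hif1a alone passed, 1 of 15 against 9.62% of 1632 (none lower, against 4.11%), at 79.7 CPM (8 counts) against 118 to 387. The neutrophil markers there summed to 9.97 CPM against 266 to 28300 in DSS libraries, and their part was not tested.

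The Il10-/- library was compared with the same uninjured library. In macrophages 10 of 31 genes were at least 2-fold higher, against 10.2% of 8428 genes, with Hif1a at a ratio of 3.97 (2.35 to 7.28), Slc2a1 at 3.38 (1.54 to 9.28) and Slc16a3 at 2.90 (1.65 to 5.65). Columnar cells had 5 of 32 against 8.67% of 9464: Egln3 (3.40, 2.87 to 4.06), Ero1l (3.27, 2.61 to 4.12), Hk2 (2.17, 2.06 to 2.29), Slc16a3 (2.13, 1.61 to 2.85) and Pfkfb3 (17.7, 8.4 to 44.7). The DSS ratios share this uninjured library, with its 7 counts of Pfkfb3. Fibroblasts had only Egln3 (2.33, 1.07 to 5.61), 1 of 30 against 4.97% of 9887. Blood endothelium had Hif1a (2.41, 1.10 to 6.02) and Pfkfb3 (2.76, 1.27 to 6.82), 2 of 12 against 11.8% of 1326. Neutrophil markers were higher than uninjured in each of these classes, at 2750 against 249 CPM in macrophages, 3090 against 4.16 in columnar cells, 812 against 4.18 in fibroblasts and 20600 against 9.97 in endothelium. The macrophages' own markers were at 6110 against 8940 CPM, and the part of these was not tested. In neutrophils, which the uninjured library lacked, Slc2a1, Eno1, Pkm and Ldha were higher in the Il10-/- library than in each of the 9 DSS libraries, 4 of 33 against 3.01% of 8394 genes, while Epas1, Ndrg1, P4ha1, Pdk1 and Pfkfb3 were lower than in each, 5 of 33 against 23.9%. Ldha was at 669 CPM there against 310.0 to 576, and Pkm at 1062 against 572 to 910. In fibroblasts 10 of 32 genes were lower than in each DSS library, against 19.3%, among them Hif1a (59.0 CPM) and Ddit4 (7.82 CPM), and 2, Aldoa and Eno1, were higher than in each, against 10.3%.

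**Figure D4:**
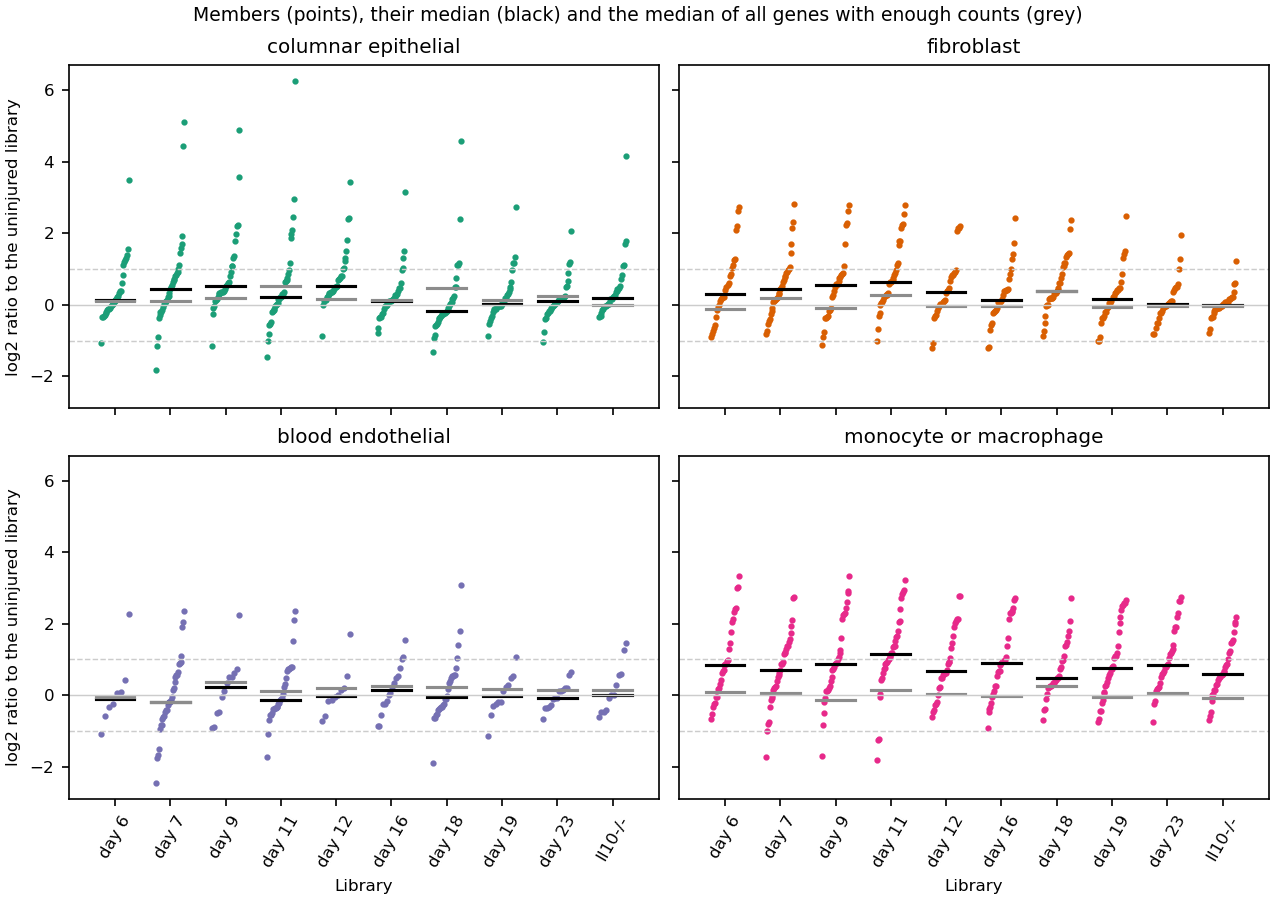
Log2 ratio of CPM to the uninjured library for each gene of the set (points) in 10 libraries (9 DSS days and Il10-/-), in 4 cell classes, with black bars for the median of the set and grey bars for the median of all genes with enough counts. In monocytes and macrophages the black bars lie between 0.47 and 1.14 in the DSS libraries and above the grey bars.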

How the data were processed

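Whole-number counts of UMIs for each gene and cell were deposited as 1 matrix, made by the authors from 3' transcript ends with Cell Ranger 3.0.0 and the mm10 genome, per the submitters' processing notes. Cell types, batch, storage and mouse numbers came from the authors' cell table, and their cell filter is not given in the sources used here. Of 14 libraries, 3 with 12621 cells, among them another day 0 and another day 7 library of batch B, matched no sample and were not used, which left 55603 cells in 11. Placeholder gene rows (0.517% of counts) were left out. No doublets were removed here, and 611 of 54976 distinct barcodes occurred in more than 1 library. For Aldoa the row with nearly all counts was used, and the other row had 6 counts.

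Counts were summed per library and type or class (28 types, 16 classes, at least 20 cells). Day trends and slope differences were fitted with edgeR 4.0.16 (quasi-likelihood, robust, TMM, filterByExpr) over all genes in classes present in at least 7 DSS libraries, with DESeq2 1.42.0 among the alternatives. The day trend fit was first tested on simulated data, which held no batch effect, and the slope difference fit was not. Ratios to the uninjured library needed 20 counts in 1 of the pair. All 35 genes were accounted for, called ones with slopes, others by ranges, and up to 4 called genes were named per pathway list. The genes, lists and tests were chosen with earlier results of these data known.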

Additional observations from a re-analysis of the deposited data

Results flagged for a closer look

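For 12 gene and class pairs the slope with day differed between cell classes in the same libraries (edgeR's quasi-likelihood test of the class by day term, 9 libraries, Benjamini-Hochberg adjustment over all genes). Against blood endothelium, columnar cells had lower slopes for Bnip3 (-1.75, SE 0.401, adjusted p = 0.0221), Ankrd37 (-1.60, SE 0.353, adjusted p = 0.0200), Hk2 (-2.32, SE 0.503, adjusted p = 0.0185) and Pfkfb3 (-1.68, SE 0.371, adjusted p = 0.0207). In endothelium at least 20 counts were present in 2 of the 9 DSS libraries for Hk2, 3 for Bnip3 and for Ankrd37, and 5 for Pfkfb3. Fibroblasts had lower slopes for Ddit4 than blood endothelium (-1.09, SE 0.242, adjusted p = 0.00499) and neutrophils (-1.08, SE 0.250, adjusted p = 0.0306), and for Ldha than macrophages (-0.61, SE 0.118, adjusted p = 0.0102).

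Epas1 had a higher slope in blood endothelium than in macrophages (1.05, SE 0.311, adjusted p = 0.0452) and a lower slope in macrophages than in neutrophils (-2.39, SE 0.519, adjusted p = 0.0202). In macrophages Epas1 had at least 20 counts in only 2 of the 9 DSS libraries. In neutrophils it was at 2.74 to 12.6 CPM up to day 12 and at 9.23 to 58.5 CPM after, where the 8 blood endothelial markers summed to 39.5 to 487 CPM, against 12.3 to 81.1 CPM up to day 12. The part of this in the Epas1 values was not tested. Gpi1 (0.78, SE 0.198, adjusted p = 0.0430), Gapdh (0.79, SE 0.176, adjusted p = 0.0200) and Ldha (0.74, SE 0.174, adjusted p = 0.0262) had higher slopes in macrophages than in neutrophils. Genes of the set called were 4 of 35 against 0.717% of all genes for columnar cells and endothelium, and 4 of 34 against 1.14% for macrophages and neutrophils. They were 1 of 35 against 2.88% for fibroblasts and macrophages, 1 of 35 against 2.28% for endothelium and macrophages, 1 of 33 against 1.09% for fibroblasts and endothelium, and 1 of 34 against 1.53% for fibroblasts and neutrophils.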

How the results depend on the processing

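No paired analysis was possible because each group has 1 library. No gene called with day in fibroblasts, blood endothelium, macrophages or neutrophils changed direction under the alternatives. The Egln1 call in plasma cells was not put through them. Median slopes of the set near 0 changed direction when 1 library was left out, from -0.05 to 0.09 in endothelium and from -0.15 to 0.07 in macrophages. Without mitochondrial counts the columnar median log2 ratio to uninjured turned negative on days 6 (-0.03), 11 (-0.21), 16 (-0.08), 19 (-0.17) and 23 (-0.20) and in the Il10-/- library (-0.02), and day 18 had 2 genes past 2-fold higher and 3 lower, in place of 5 and 1. Main counts of genes called with day were 0 in columnar cells, 5 in fibroblasts, 2 in blood endothelium, 4 in macrophages and 4 in neutrophils. DESeq2 gave 5 in columnar cells and 11 in fibroblasts. Without the batch term the counts were 3 in fibroblasts, 1 in endothelium and 0 in both macrophages and neutrophils. The 6 libraries of batch A gave 2 in columnar cells, 1 in endothelium and 2 in neutrophils. Endothelium had 1 with its largest type only and 1 with stricter cells, and neutrophils 11 with no filter on low counts. Leaving out 1 library gave 0 to 3 in columnar cells, 3 to 10 in fibroblasts, 1 to 2 in endothelium, 1 to 6 in macrophages (1 without day 23) and 0 to 4 in neutrophils. The cause of these changes was not tested. Shares of all genes called in these refits are given above only for columnar cells, with DESeq2, on batch A and without day 7. The other counts therefore do not show a change particular to the set.

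For single called genes, Egln1 in plasma cells left aside, 182 alternatives kept the call and 69 lost it. Ddit4 and Slc2a1 in fibroblasts kept it in 17 of 17 (adjusted p up to 0.0250 and 0.0372). Genes of the set called for a slope difference changed on the 6 libraries of batch A, given here with the shares of all genes in brackets. Columnar cells went from 0 to 2 with fibroblasts (0.0839% to 0.701%) and 4 to 1 with endothelium (0.717% to 0.532%). They went from 0 to 2 with macrophages (0.148% to 1.03%) and 0 to 1 with neutrophils (0.0667% to 1.79%). Fibroblasts went from 1 to 0 with endothelium (1.09% to 0.246%), 1 to 4 with macrophages (2.88% to 2.73%) and 1 to 3 with neutrophils (1.53% to 3.29%). Endothelium went from 1 to 0 with macrophages (2.28% to 0.708%) and 0 to 2 with neutrophils (0.166% to 1.67%). Macrophages went from 4 to 8 with neutrophils (1.14% to 1.82%). Of genes at least 2-fold above uninjured in 5 DSS libraries, stricter cells left 3 of 5 in columnar cells and a minimum of 50 counts left 0 of 1 in endothelium. In the Il10-/- library, leaving out mitochondrial counts left 3 of 5 in columnar cells, and 50 counts left 0 of 1 in fibroblasts and 0 of 2 in endothelium. Among columnar cells, fibroblasts, macrophages and endothelium, endothelium had the fewest uninjured counts, 100314 over all genes and 8 of Hif1a.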
